A study of Homo sapiens with 12 samples.

Results

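The 9 genes described here make carnitine, bring it into the cell and use it to carry fatty acids into mitochondria and peroxisomes: *TMLHE*, *ALDH9A1*, *BBOX1*, *SLC22A5*, *CPT1A*, *SLC25A20*, *CPT2*, *CRAT* and *CROT*. They were picked by symbol, as the known genes of this pathway, and *BBOX1* was included because its fall in JVM2 cells was already known from these data. The MEC1 table held 8 of them among 22441 genes, and the JVM2 table held all 9 among 17144 genes. *BBOX1* has no row in the MEC1 table, in which each listed gene has at least 10 counts over the 6 libraries.

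Carnitine is assembled from trimethyllysine released from proteins. TMLHE hydroxylates trimethyllysine, ALDH9A1 oxidizes the aldehyde intermediate, and BBOX1 hydroxylates gamma-butyrobetaine to carnitine in the final step. BBOX1 is best known from kidney, liver and brain, and most other tissues take carnitine from blood through SLC22A5. Inside the cell, CPT1 enzymes on the outer mitochondrial membrane load long-chain acyl groups on carnitine, SLC25A20 exchanges acylcarnitine for carnitine across the inner membrane, and CPT2 returns the acyl group to coenzyme A. CRAT handles acetyl and other short chains, and CROT handles medium chains made in peroxisomes.

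RNA was sequenced from 12 libraries of 2 established human neoplastic B-cell lines, MEC1 and JVM2, with 3 libraries in each of 4 groups. MEC1-CTRL cells carried a stable shRNA knock-down of *UGT2B17*, the gene of a steroid-conjugating glucuronosyltransferase, and were kept in puromycin. MEC1-2B17 and JVM2-2B17 cells were transfected with pcDNA6 holding the coding sequence of *UGT2B17*, and JVM2-CTRL cells with pcDNA6 alone. These 3 groups were kept in blasticidin. The MEC1 arms thus differed in construct and antibiotic, whereas the JVM2 arms shared vector and antibiotic. Both 2B17 models are antibiotic-selected derivatives of the parental lines, and the labels do not say that replicates came from separate selections, so *P*-values cover the spread between these libraries.

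*UGT2B17*, on chromosome 4, followed the labels. It had 447, 371 and 346 counts in MEC1-CTRL against 766, 673 and 637 in MEC1-2B17 (log2 fold change 0.94, SE 0.069, adjusted *P* = 2e-09). In JVM2 it had 299, 281 and 258 counts against 389, 402 and 315 (log2 fold change 0.48, SE 0.11, adjusted *P* = 0.0048). Without JVM2-2B17 replicate 2 this log2 fold change was 0.35 (edgeR adjusted *P* = 0.0014). The total per library was 31762649 to 37744991 counts in MEC1 and 8809179 to 11231330 in JVM2. The variation between replicates, edgeR's common biological coefficient of variation, was 4.22% in MEC1 and 6.92% in JVM2. A change of a given size was thus measured less precisely in JVM2. JVM2-2B17 replicate 2 stood apart, with a median absolute deviation from its group of 0.135 on the log2 scale against 0.0642 to 0.0919 in the other JVM2 libraries. All 9 B-cell markers exceeded 1 CPM in each group, where CPM is the count scaled to a common total by the TMM-adjusted library size. Of 15 markers of T, NK, myeloid, epithelial, stromal, liver and erythroid cells, 4 exceeded 1 CPM in MEC1-CTRL, 5 in MEC1-2B17 and 2 in each JVM2 group. Their summed level was 26.7 to 29.4 CPM in MEC1-CTRL, 12.8 to 14.2 in MEC1-2B17, 20.3 to 22.2 in JVM2-CTRL and 18.9 to 20.2 in JVM2-2B17. The highest was *GNLY* in MEC1, at 19.6 CPM in CTRL and 4.94 in 2B17. In JVM2 it was *KRT18*, at 18.5 and 16.1 CPM. The part of these markers in the results was not tested.

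Most carnitine genes changed modestly in MEC1, and in JVM2 the large difference was in *BBOX1*. In MEC1, 7 of the 8 listed carnitine genes passed the test (edgeR quasi-likelihood test, Benjamini-Hochberg adjusted *P* below 0.05), with *CPT1A*, *SLC25A20* and *ALDH9A1* higher and *CRAT*, *SLC22A5*, *TMLHE* and *CPT2* lower in 2B17 cells. Of the 16581 genes tested in MEC1, 41.7% passed, 20.0% higher and 21.6% lower. The median log2 fold change of the 8 genes was -0.08 against 0.003 over all genes. In JVM2, 0 of the 8 genes other than *BBOX1* passed, where 29.3% of 13021 tested genes did, and their median was 0.12 against 0. At an unadjusted *P* below 0.05 there were 2 of them, *TMLHE* and *ALDH9A1*. DESeq2 called 0 and edgeR's exact test called 1, *TMLHE*. *BBOX1* itself was 7.38-fold lower in JVM2-2B17 than in JVM2-CTRL. Because it was chosen for that fall, its values are a description and carry no test.

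**Figure D1:**
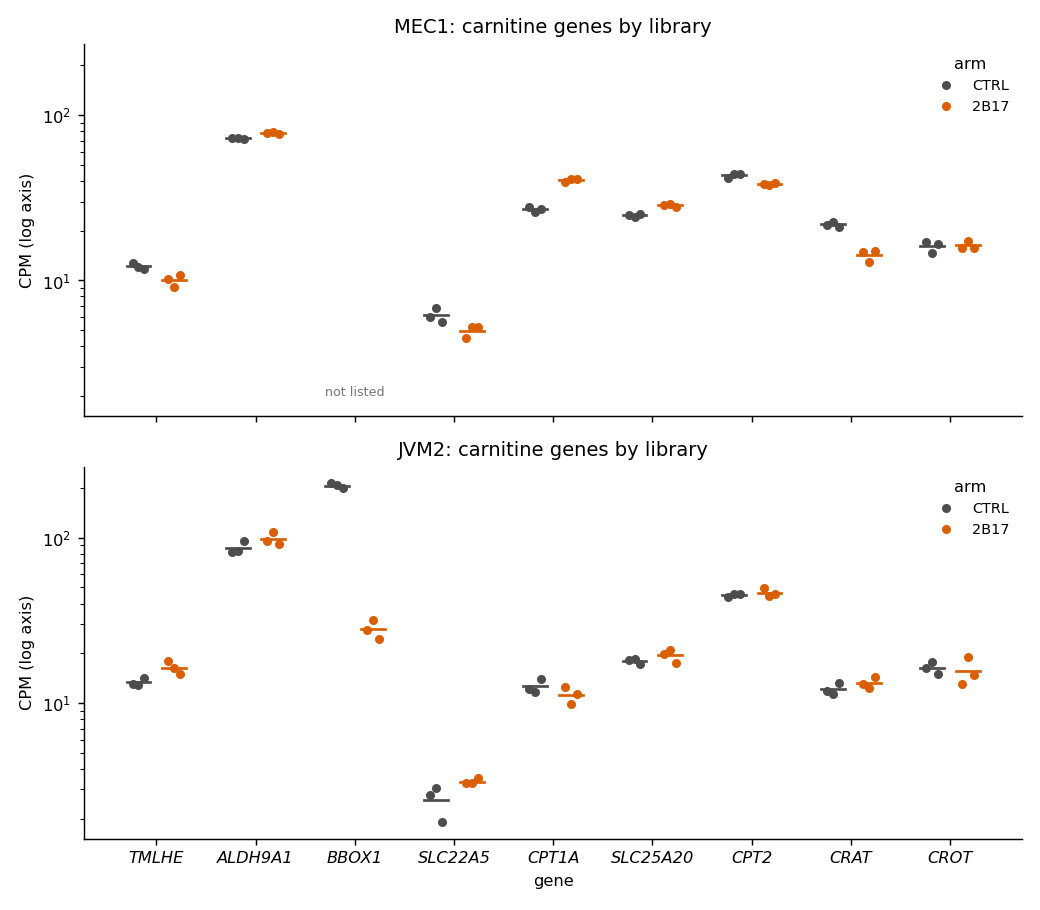
CPM of each carnitine gene in every library, on a log axis, with MEC1 in the upper and JVM2 in the lower panel; each point is 1 library (CTRL grey, 2B17 orange) and lines mark the means. The 3 JVM2-2B17 libraries lie between 24.3 and 32 CPM for *BBOX1*, below the 199 to 213 CPM of JVM2-CTRL, and the MEC1 arms of *CPT1A* and *CRAT* are apart.

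*BBOX1* (ENSG00000129151) lies on the plus strand of chromosome 11 from 27040725 to 27127809 of GRCh38, and its transcript was the most abundant of the carnitine genes in JVM2-CTRL. The stretches before its RefSeq starts are shown because this gene changed most. They are the 250 bases at chr11:27040565-27040814 and chr11:27041550-27041799, plus strand, from RefSeq on GRCh38.p14. The corresponding 250 bases of *CPT1A*, chr11:68844278-68844527 on the minus strand, are given for contrast, as the gene that rose most in MEC1. Letters run 5′ to 3′, and capitals mark each CG dinucleotide.
BBOX1, upstream start: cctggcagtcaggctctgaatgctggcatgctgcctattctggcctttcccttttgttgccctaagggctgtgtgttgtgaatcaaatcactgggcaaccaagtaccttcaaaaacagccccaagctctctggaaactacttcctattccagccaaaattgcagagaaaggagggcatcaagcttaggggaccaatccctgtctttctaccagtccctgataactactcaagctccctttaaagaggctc
BBOX1, downstream start: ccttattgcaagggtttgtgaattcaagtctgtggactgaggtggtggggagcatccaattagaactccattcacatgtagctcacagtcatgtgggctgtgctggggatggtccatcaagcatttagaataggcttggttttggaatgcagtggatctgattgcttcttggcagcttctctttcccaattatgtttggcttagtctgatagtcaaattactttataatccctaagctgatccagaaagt
CPT1A: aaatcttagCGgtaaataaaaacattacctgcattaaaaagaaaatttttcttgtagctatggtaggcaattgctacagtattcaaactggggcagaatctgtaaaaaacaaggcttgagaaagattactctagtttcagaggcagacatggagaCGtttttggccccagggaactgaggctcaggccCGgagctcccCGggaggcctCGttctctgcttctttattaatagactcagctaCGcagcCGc
Neither *BBOX1* stretch holds a CG. Of the 35114 RefSeq promoters of this length, 6.05% hold none, and their median is 11. Of the 9 carnitine genes, 8 matched an entry, all except *CRAT*. The other 7 matched genes had 7 to 27 CG dinucleotides, and *CPT1A* had the 7. The letters AGGTCA, the half-site of nuclear receptors such as PPARs, were searched on both strands and stand in none of these stretches, against 12.1% of all promoters. These counts describe the letters alone.

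The JVM2-CTRL replicates held 2140, 2231 and 1873 counts of *BBOX1*, and the JVM2-2B17 replicates held 306, 284 and 215. Normalized, this was 213, 208 and 199 CPM against 27.7, 32 and 24.3 CPM. The lowest CTRL library was far above the highest 2B17 library. The group levels were 207 ± 7.33 and 28 ± 3.83 CPM (SD, n = 3, as throughout), a log2 fold change of -2.88. Among all tested JVM2 genes it was the fall with rank 143. Leaving out each library in turn gave values from -2.98 to -2.79, from which nothing is read, since the gene was chosen on these libraries. In MEC1, *BBOX1-AS1*, a long noncoding RNA on the opposite strand that overlaps *BBOX1* over 80624 bases, had 7 counts in all in MEC1-CTRL and 3 in MEC1-2B17, and it has no row in JVM2. Whether counting used strand is not given in the sources used here, so reads of such a pair cannot be told apart.

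The genes near *BBOX1* were read in the same JVM2 libraries. Of 8 tested genes other than *BBOX1* within 2 Mb of it, 4 were lower, 0 were higher, and their median log2 fold change was -0.35. *FIBIN* (2.2 CPM in JVM2-CTRL, 0.0375 in JVM2-2B17) and *MUC15* (2.26 and 0.911 CPM) met the count filter only through JVM2-CTRL. They could therefore enter this count and median only as falls. Over all genes tested in JVM2, 15.3% were lower and 14.1% higher. *FIBIN*, 43.6 kb before *BBOX1*, had between 21 and 23 counts per JVM2-CTRL library and no more than 1 per JVM2-2B17 library. This is at least 6.95-fold lower against a floor of 3 counts per library, and no *P*-value is given for it. *CCDC34*, the nearest tested gene on the other side at 203 kb, stood at 25.9 ± 1.02 CPM in JVM2-CTRL and 27.4 ± 2.55 CPM in JVM2-2B17 (log2 fold change 0.08, SE 0.092, adjusted *P* = 0.55). Farther out, *ANO3* fell by 0.56, *MUC15* by 1.3 and *LGR4* by 0.62 on the log2 scale. *LIN7C* (-0.14), *KIF18A* (0.07) and *METTL15* (0.28) did not pass the test. Of the nearest genes on the 2 sides of *BBOX1*, *FIBIN* could pass only as a fall, so the sides are described and not compared. In MEC1, 1 of 6 tested genes in this window was lower and 0 were higher, where 21.6% and 20.0% of all tested genes were.

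**Figure D2:**
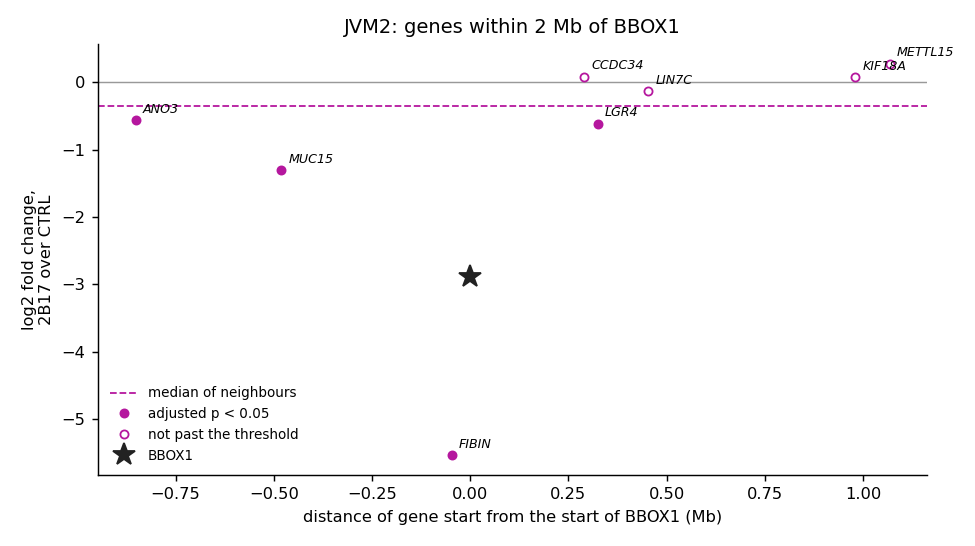
Log2 fold change of 2B17 over CTRL in JVM2 for *BBOX1* and the tested genes within 2 Mb, against distance in Mb from its start; filled points passed the test, the dashed line is the median of the neighbours, and *BBOX1* (star) has no test. *FIBIN*, beside *BBOX1*, is drawn at its fitted value, which has 2B17 counts at the floor and is no exact size, and *CCDC34* lies near 0. *FIBIN* and *MUC15* could enter the points and the median only as falls.

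The other 2 synthesis genes moved less. *TMLHE* (ENSG00000185973, minus strand of chromosome X, 155489011 to 155719098) encodes the first enzyme of the pathway. In MEC1-CTRL it stood at 12.8, 12.1 and 11.7 CPM and in MEC1-2B17 at 10.2, 9.19 and 10.8 CPM. The arms did not overlap, and it fell by 0.28 on the log2 scale (SE 0.076, adjusted *P* = 0.0069). In JVM2 the order was the other way, with 13.1, 12.9 and 14.1 CPM in JVM2-CTRL and 17.9, 16.2 and 15 CPM in JVM2-2B17. Every 2B17 library was above every CTRL library, but the log2 difference of 0.3 (SE 0.11) had an adjusted *P* of 0.051 and did not pass. Without JVM2-2B17 replicate 2 it passed at 0.04, and without replicate 3 at 0.039. In the other 4 of 6 fits without 1 library it did not pass (adjusted *P* of 0.076 to 0.18 in edgeR). It passed with edgeR's exact test (0.039) and RLE scaling (0.049), but not with DESeq2 (0.17). The difference between the lines in the *TMLHE* response was -0.57 (MEC1 minus JVM2, 95% interval -0.84 to -0.31), with an adjusted *P* of 0.0018 in the edgeR interaction test. Its antisense *TMLHE-AS1* and the opposite-strand gene *SPRY3* overlap it but had few counts and were not tested.

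*ALDH9A1* (ENSG00000143149, minus strand of chromosome 1, 165662216 to 165698562) encodes an aldehyde dehydrogenase that also oxidizes other aminoaldehydes. It stood at 73.2, 72.5 and 71.4 CPM in MEC1-CTRL and at 78, 78.7 and 77.4 CPM in MEC1-2B17. The arms were apart, and the rise of 7.88% (log2 fold change 0.11, SE 0.035, adjusted *P* = 0.019) was the smallest among the members that passed in MEC1. This call did not hold without MEC1-CTRL replicate 2 (adjusted *P* = 0.064) or replicate 3 (0.06). In JVM2 the libraries held 82, 83.6 and 95.4 CPM in CTRL and 95.5, 109 and 91.1 CPM in 2B17. These arms overlapped, with a log2 difference of 0.18 (SE 0.081, adjusted *P* = 0.11). The responses of the 2 lines were not told apart, at -0.07 with a 95% interval of -0.25 to 0.12.

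*SLC22A5* (ENSG00000197375, plus strand of chromosome 5, 132369710 to 132395613) encodes OCTN2, the sodium-coupled carnitine importer of the plasma membrane. It was the least abundant member. MEC1-CTRL libraries held 6.05, 6.8 and 5.57 CPM, and MEC1-2B17 libraries held 4.47, 5.24 and 5.2 CPM. All 2B17 libraries were below all CTRL libraries, a fall of 19.1% (log2 fold change -0.31, SE 0.1, adjusted *P* = 0.025). The call was lost with DESeq2 (adjusted *P* = 0.068), without MEC1-CTRL replicate 2 (0.14) and without MEC1-2B17 replicate 1 (0.12). *AC034220.3* (ENSG00000233006), a long noncoding RNA on the opposite strand that shares 461 bases with it, had 72 counts in MEC1-CTRL and 29 in MEC1-2B17. Its libraries held 23, 19 and 30 counts in CTRL and 5, 15 and 9 in 2B17 (log2 fold change -1.2, SE 0.35). *AC034220.3* met the count filter only through MEC1-CTRL. It could therefore be called only as a fall, and no *P*-value is given for it. In JVM2 *SLC22A5* rested on 28, 33 and 18 counts in CTRL and 36, 29 and 31 in 2B17, which is 2.79, 3.08 and 1.91 CPM against 3.26, 3.27 and 3.51 CPM. The 2B17 libraries were higher, yet the log2 difference of 0.35 had a 95% interval from -0.13 to 0.83 and an adjusted *P* of 0.26, so a change was not detectable at this depth. The interaction, -0.65 (95% interval -1.17 to -0.14, adjusted *P* = 0.049), was at the threshold. It was lost in 9 of 12 fits that left out a library (adjusted *P* up to 0.16), all but those without MEC1-CTRL replicate 3, MEC1-2B17 replicate 2 or JVM2-CTRL replicate 2, and with DESeq2 (0.056).

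The shuttle's first enzyme gave the largest rise among the members. *CPT1A* (ENSG00000110090, minus strand of chromosome 11, 68754620 to 68844410), the malonyl-CoA-sensitive step that commits long-chain fatty acids to mitochondria, stood at 27.8, 26.1 and 27.2 CPM in MEC1-CTRL. It stood at 39.4, 41 and 41.3 CPM in MEC1-2B17. The gap between the arms was many times the spread within them, with 27 ± 0.837 against 40.5 ± 1.04 CPM and a 1.5-fold rise (log2 fold change 0.58, SE 0.048, adjusted *P* = 1.1e-08). In JVM2 the values were 12.2, 11.7 and 13.9 CPM in CTRL and 12.5, 9.8 and 11.4 CPM in 2B17. These arms overlapped, with a log2 difference of -0.15 (95% interval -0.42 to 0.12, adjusted *P* = 0.41), an interval that excludes a rise of the size seen in MEC1. The interaction of 0.73 (95% interval 0.48 to 0.99, adjusted *P* = 1e-04) held in each of the 12 fits without 1 library, from 0.65 to 0.82.

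*SLC25A20* (ENSG00000178537, minus strand of chromosome 3, 48856926 to 48898904), the carnitine-acylcarnitine exchanger of the inner membrane, rose with *CPT1A* in MEC1 but by less. Its libraries held 24.9, 24.3 and 25.2 CPM in MEC1-CTRL and 28.6, 29.2 and 27.7 CPM in MEC1-2B17, with no overlap and a rise of 14.8% (log2 fold change 0.2, SE 0.05, adjusted *P* = 0.0033). In JVM2 it stood at 18.3, 18.4 and 17.3 CPM against 19.9, 20.8 and 17.5 CPM. The arms overlapped (log2 difference 0.11, SE 0.098, adjusted *P* = 0.43), and the interaction, 0.09, had a 95% interval of -0.12 to 0.3.

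*CPT2* (ENSG00000157184, plus strand of chromosome 1, 53196792 to 53214197), the inner-membrane partner of CPT1, went the other way in MEC1. It fell from 41.5, 43.8 and 44.3 CPM in MEC1-CTRL to 38.1, 37.7 and 38.9 CPM in MEC1-2B17. The arms did not overlap, and the fall was 11.4% (log2 fold change -0.17, SE 0.046, adjusted *P* = 0.0049). JVM2-CTRL held 44.1, 45.6 and 45.4 CPM and JVM2-2B17 held 49.4, 44.7 and 45.7 CPM, which overlapped (log2 difference 0.05, 95% interval -0.1 to 0.2, adjusted *P* = 0.63). The interaction of -0.22 (adjusted *P* = 0.038) was lost in 8 of 12 fits without 1 library (adjusted *P* up to 0.11), all but those without MEC1-CTRL replicate 1, MEC1-2B17 replicate 3 or JVM2-2B17 replicate 2 or 3. *C1orf123* shares 99 bases with *CPT2* on the opposite strand. It did not pass in MEC1 (log2 fold change 0.09, adjusted *P* = 0.19) and rose in JVM2 (0.24, adjusted *P* = 0.047), a call lost with DESeq2 (0.14), scaling by library size alone (0.054), without the low-count filter (0.051) and with a minimum of 10 counts per library (0.052), and without JVM2-CTRL replicate 2 (0.19) or 3 (0.12) or JVM2-2B17 replicate 1 or 3 (0.089 each).

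*CRAT* (ENSG00000095321, minus strand of chromosome 9, 129094142 to 129111189), carnitine acetyltransferase, buffers the pool of acetyl-CoA. It gave the largest fall of the members listed in MEC1. The CTRL libraries held 21.7, 22.7 and 21.1 CPM and the 2B17 libraries 14.8, 12.9 and 15.1 CPM. They were clearly apart, at 21.9 ± 0.839 against 14.3 ± 1.2 CPM, a fall of 34.7% (log2 fold change -0.61, SE 0.066, adjusted *P* = 3.6e-07). In JVM2 *CRAT* stood at 11.8, 11.3 and 13.2 CPM against 13.1, 12.3 and 14.4 CPM. The arms overlapped (log2 difference 0.13, SE 0.11, adjusted *P* = 0.41), and the interaction was -0.75 (95% interval -1.02 to -0.47, adjusted *P* = 0.00016).

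The fall of *CRAT* in MEC1 was shared by its neighbours. Of the 84 other tested genes within 2 Mb, 60 were lower and 2 were higher in MEC1-2B17. The log2 fold changes of the 84 neighbours had a median of -0.37, and 8 of them had a lower value than *CRAT*. *PPP2R4*, an activator of protein phosphatase 2A that shares 240 bases with *CRAT* on the opposite strand, fell from 129 ± 3.15 to 84.4 ± 1.59 CPM, by 0.61 on the log2 scale (SE 0.034, adjusted *P* = 4.1e-11). In JVM2, 10 of 67 such genes were higher and 11 lower, where 14.1% and 15.3% of all tested genes were. Their median was -0.03, and *PPP2R4* did not pass (-0.08, edgeR adjusted *P* = 0.41). The windows around the other 7 members listed in MEC1 had medians between -0.06 and 0.06 there. The part of this region's shift in the value of *CRAT* was not tested.

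**Figure D3:**
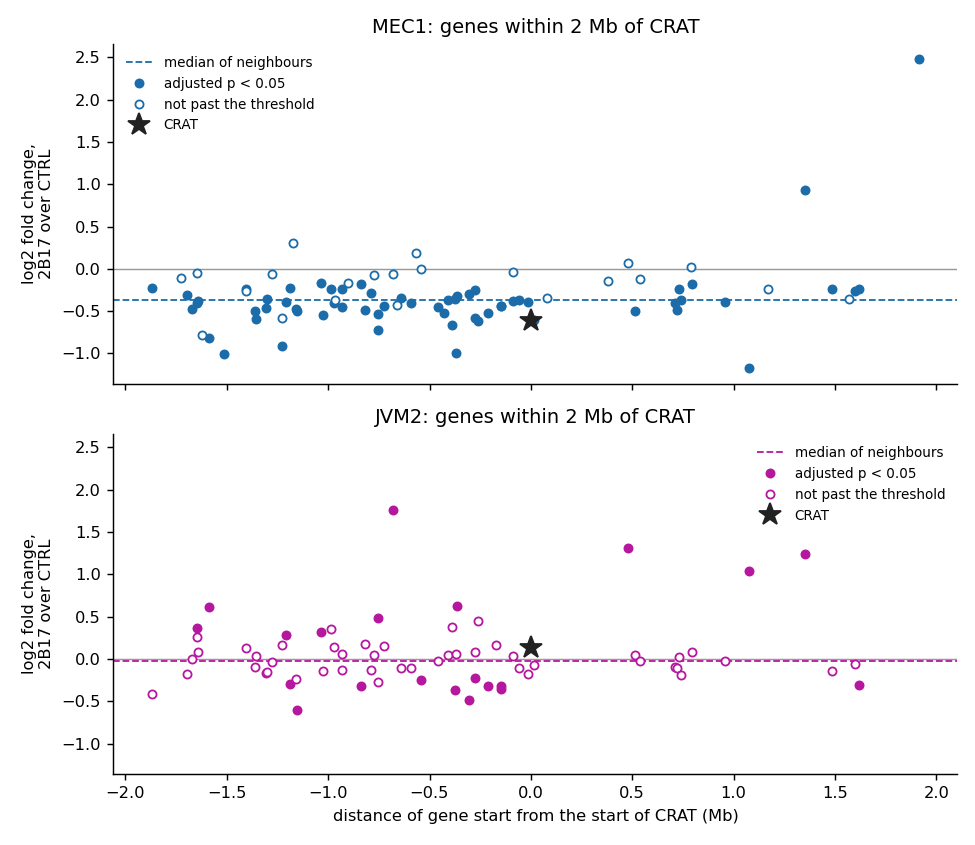
Log2 fold change of 2B17 over CTRL for the tested genes within 2 Mb of *CRAT*, against distance in Mb from its start, with MEC1 and JVM2 in separate panels; filled points passed the test, the star is *CRAT* and the dashed line is the median of its neighbours. In MEC1, 60 of 84 neighbours are lower and the median is -0.37, and in JVM2 the points spread around a median of -0.03.

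*CROT* (ENSG00000005469, plus strand of chromosome 7, 87345664 to 87399794), the peroxisomal octanoyltransferase, passed the test in neither line. MEC1-CTRL held 17.1, 14.6 and 16.7 CPM and MEC1-2B17 held 15.8, 17.4 and 15.7 CPM (log2 difference 0.02, 95% interval -0.13 to 0.16, adjusted *P* = 0.89). JVM2-CTRL held 16.2, 17.6 and 15 CPM and JVM2-2B17 held 13.1, 19.1 and 14.7 CPM (-0.07, 95% interval -0.37 to 0.23, adjusted *P* = 0.75). In JVM2-2B17, replicate 2 was the highest of all 6 libraries.

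Across the 8 genes listed in both tables, the response differed between the lines for 5 (32.0% of 15130 jointly tested genes passed this interaction test). It was higher in MEC1 for *CPT1A* and lower for *TMLHE*, *SLC22A5*, *CPT2* and *CRAT*. Those of *CPT1A*, *CRAT* and *TMLHE* passed under each setting tried. The arms did not overlap for 7 of 8 members in MEC1, where 50.1% of tested genes had such arms. In JVM2 this held for *TMLHE* and *SLC22A5*, 2 of the 8 members other than *BBOX1*, against 45.2% of tested genes. The standard errors of the members' log2 fold changes ran from 0.035 to 0.1 in MEC1 and from 0.07 to 0.22 in JVM2.

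**Figure D4:**
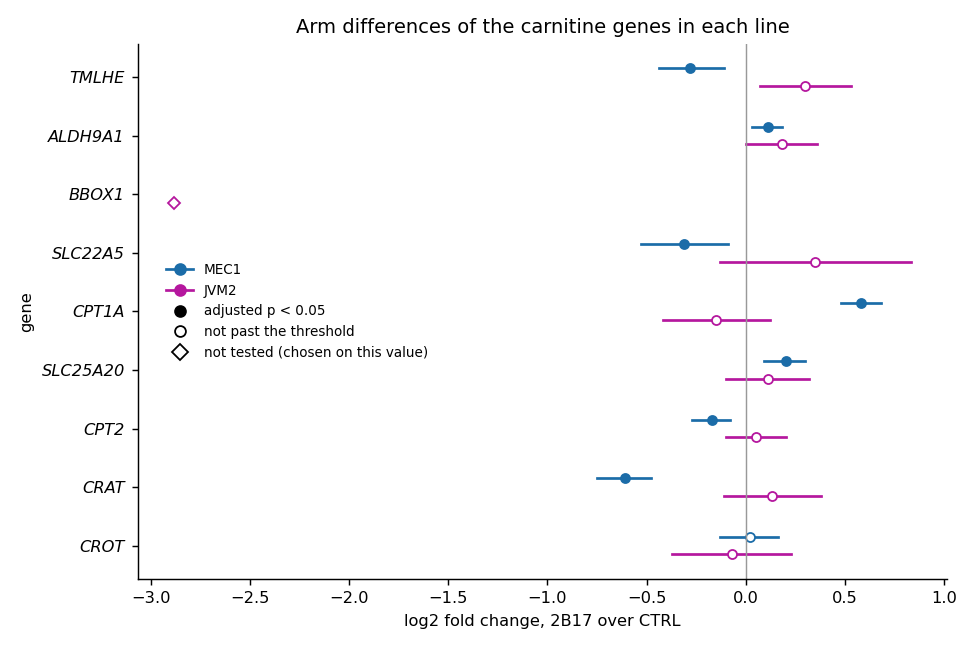
Log2 fold change of 2B17 over CTRL for each carnitine gene in MEC1 and in JVM2, with 95% intervals as bars and a line at 0; *BBOX1* is drawn for JVM2 without an interval, since it was not tested. *CPT1A* lies at 0.58 in MEC1 and -0.15 in JVM2, and *CRAT* at -0.61 and 0.13.

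The control groups also differed from each other. Levels of MEC1-CTRL and JVM2-CTRL were set on a common scale by a joint fit of the 12 libraries over the 16052 genes in both tables, of which 15130 were tested. Of the 8 members, 7 differed, 3 higher and 4 lower in JVM2-CTRL, where 78.3% of the tested genes differed, 38.7% higher and 39.6% lower. Line, table and depth cannot be told apart here, and libraries were sequenced at more than one site, with the site of each sample not given in the sources used here. In addition, MEC1-CTRL carries an shRNA that JVM2-CTRL lacks, and the comparison shares its libraries with those above. *BBOX1* could not enter it.

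*SLC22A5*, *CPT1A*, *CRAT* and *SLC25A20* were higher in MEC1-CTRL. *SLC22A5* stood at 5.75, 6.45 and 5.28 CPM in MEC1-CTRL and at 2.99, 3.28 and 2.04 CPM in JVM2-CTRL, 2.09-fold higher in MEC1 (log2 difference -1.06, JVM2 minus MEC1, SE 0.17, adjusted *P* = 8.4e-06). *CPT1A* stood at 26.4, 24.8 and 25.7 CPM against 13, 12.4 and 14.8 CPM, 1.92-fold higher in MEC1 (-0.94, SE 0.082, adjusted *P* = 1.5e-09). *CRAT* was 1.61-fold higher in MEC1, at 20.7 ± 0.817 against 12.9 ± 1.05 CPM (-0.69, adjusted *P* = 5.2e-07), and *SLC25A20* was 1.22-fold higher (-0.29, adjusted *P* = 0.001). None of these libraries overlapped between the lines. The synthesis genes compared, *ALDH9A1* and *TMLHE*, were higher in JVM2-CTRL. *ALDH9A1* stood at 69.6, 68.8 and 67.6 CPM in MEC1-CTRL and at 87.8, 89 and 102 CPM in JVM2-CTRL, 1.35-fold higher (0.43, SE 0.063, adjusted *P* = 2.6e-06), and *TMLHE* was 1.23-fold higher (0.3, SE 0.093, adjusted *P* = 0.0064). *CPT2* was also higher in JVM2-CTRL, 1.17-fold (0.23, SE 0.056, adjusted *P* = 0.00086). *CROT* overlapped between the lines, at 15.3 ± 1.29 and 17.4 ± 1.4 CPM (0.19, SE 0.11, adjusted *P* = 0.12). When libraries were scaled by their size only, the median of all genes moved from -0.037 to -0.2, and *TMLHE* (0.14, adjusted *P* = 0.18) and *CPT2* (0.07, adjusted *P* = 0.25) no longer passed, while *ALDH9A1* moved to 0.27 and *SLC25A20* to -0.45.

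Levels of different genes were compared per kilobase of exon (CPM per kb). In JVM2-CTRL, *BBOX1* led at 83.9 ± 2.97 CPM per kb, above 96.8% of tested genes, followed by *ALDH9A1* at 28.9 ± 2.44, *SLC25A20* at 9.49 ± 0.321, *CPT2* at 4.47 ± 0.0795, *CROT* at 3.26 ± 0.267, *TMLHE* at 2.61 ± 0.131, *CPT1A* at 1.91 ± 0.179, *CRAT* at 1.6 ± 0.129 and *SLC22A5* at 0.141 ± 0.0331. No neighbours in this order overlapped, but with the length of the longest transcript *CPT1A*, at 2.4 CPM per kb, came below *CRAT*, at 2.7. In JVM2-2B17, *BBOX1* came after *ALDH9A1* (32.8 ± 3.14 CPM per kb), and its 11.4 ± 1.56 CPM per kb overlapped with *SLC25A20* at 10.2 ± 0.898.

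In MEC1-CTRL the order was *ALDH9A1* at 24.1 ± 0.304 CPM per kb, *SLC25A20* at 13.1 ± 0.261, *CPT2* at 4.28 ± 0.147, *CPT1A* at 4.12 ± 0.127, *CROT* at 3.22 ± 0.271, *CRAT* at 2.89 ± 0.111, *TMLHE* at 2.38 ± 0.106 and *SLC22A5* at 0.334 ± 0.0336. *CPT2* overlapped with *CPT1A* and *CROT* with *CRAT*. In MEC1-2B17, *CPT1A* stood above *CPT2*, at 6.17 ± 0.158 against 3.79 CPM per kb, and *CRAT*, at 1.89, overlapped with *TMLHE*, at 1.97. With the longest transcript in place of all exons, *CPT1A* in MEC1-2B17 came below *CPT2* again, at 7.74 against 8.43 CPM per kb, and *TMLHE*, at 2.55, came below *CRAT*, at 3.2. In JVM2-2B17 the same change put *CROT*, at 4.89, above *TMLHE*, at 4.14, so these orders depend on the length used.

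**Figure D5:**
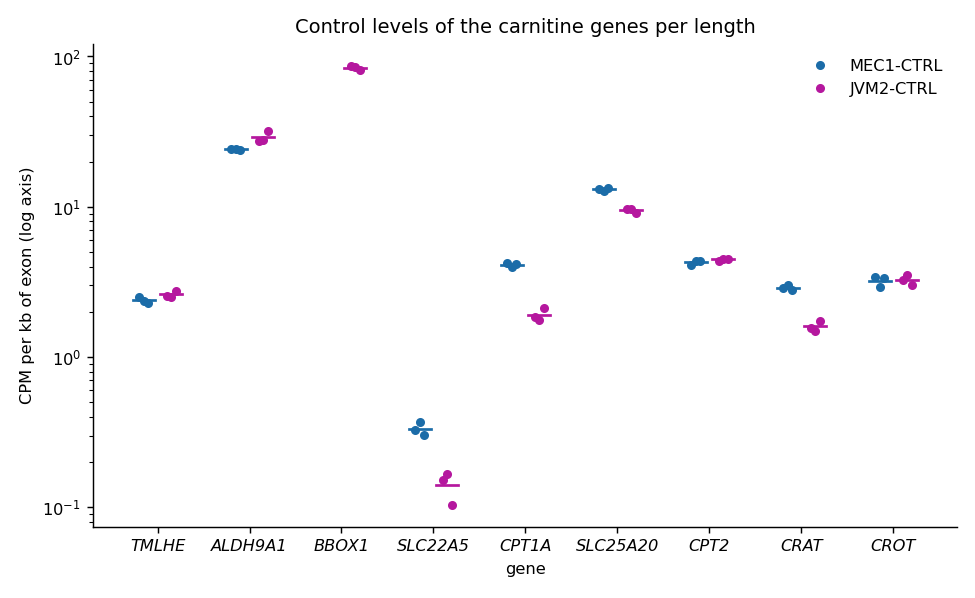
Level of each carnitine gene in MEC1-CTRL and JVM2-CTRL as CPM per kb of exon, on a log axis, with 1 point per library and a line at the mean; each line is on its own scale. *BBOX1*, drawn for JVM2 alone, is the highest at 83.9 CPM per kb, *SLC22A5* is the lowest in both lines, and *CPT1A* stands at 4.12 in MEC1-CTRL and 1.91 in JVM2-CTRL.

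The genes that feed and follow the shuttle were described by lists written from general knowledge. Of 11 genes of acyl-CoA synthesis and malonyl-CoA control, 11 were tested in MEC1, where 4 rose and 4 fell, and 9 in JVM2, where 1 rose and 2 fell. Over all genes, 41.7% passed in MEC1 and 29.3% in JVM2. The list's medians were -0.01 and -0.03, against 0.003 and 0 over all genes. *ACACB*, the mitochondrial acetyl-CoA carboxylase whose malonyl-CoA inhibits CPT1, rose in both lines. Its log2 fold change was 0.49 in MEC1 (SE 0.084, adjusted *P* = 0.00011), and JVM2 gave 0.64 (SE 0.12, adjusted *P* = 0.0015), and the interaction was -0.15 (SE 0.14, adjusted *P* = 0.45). *ACACA*, its cytosolic paralog for lipid synthesis, fell in JVM2 from 82.2 ± 4.63 to 58.5 ± 0.686 CPM (-0.49, adjusted *P* = 0.00011). The acyl-CoA synthetase *ACSL4*, which prefers arachidonate, fell in both lines, from 146 ± 11.1 to 112 ± 1.02 CPM in JVM2 (-0.38, adjusted *P* = 0.00095) and from 247 ± 7.24 to 170 ± 5.94 CPM in MEC1 (-0.54, adjusted *P* = 1.3e-09). In MEC1, *ACSL6* rose by 0.71 (adjusted *P* = 0.0032), and the fatty acid transport proteins *SLC27A2* and *SLC27A4* changed by -0.95 (adjusted *P* = 0.0061, but 0.051 without MEC1-CTRL replicate 1) and -0.54 (adjusted *P* = 4.3e-08). *SLC27A4* is among the genes within 2 Mb of *CRAT*.

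Mitochondrial beta-oxidation is the destination of the shuttle. Of 15 tested genes of 16 listed, 3 rose and 6 fell in MEC1 (median -0.04), whereas 7 rose and 0 fell in JVM2 (median 0.18). Over all genes, 20.0% rose and 21.6% fell in MEC1, and 14.1% rose and 15.3% fell in JVM2. The interaction test called 6 of the 15, all with the lower response in MEC1, where 32.0% of all genes were called and 16.7% in that direction. *HADH*, the short-chain hydroxyacyl-CoA dehydrogenase, fell in MEC1 from 60.8 ± 1.09 to 49 ± 1.46 CPM (-0.31, adjusted *P* = 6.2e-06) and rose in JVM2 from 54.5 ± 0.6 to 68.5 ± 1.89 CPM (0.33, adjusted *P* = 0.0015), with an interaction of -0.64 (SE 0.071, adjusted *P* = 6.1e-07). *ECI1*, an enoyl-CoA isomerase for unsaturated chains, rose in both, by 0.26 (adjusted *P* = 3.8e-05) and 0.34 (adjusted *P* = 0.014, but 0.073 without JVM2-CTRL replicate 3), with an interaction of -0.07 (adjusted *P* = 0.6). In MEC1, *ACADVL*, which takes the first oxidation step on long chains, rose from 62.2 ± 2.56 to 74.7 ± 1.53 CPM (0.26, adjusted *P* = 3.2e-05), and *ECI2* fell by 0.3 (adjusted *P* = 5.2e-05).

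Of 11 peroxisomal oxidation genes tested in MEC1, 1 rose and 5 fell, with a median of -0.12, where 20.0% of all genes rose and 21.6% fell. *ABCD2*, a peroxisomal importer of very-long-chain acyl-CoA, fell from 16.3 ± 0.412 to 8.08 ± 0.428 CPM (-1.02, adjusted *P* = 8.9e-10), and the oxidase *ACOX3* fell by 0.41 (adjusted *P* = 4.5e-06). *EHHADH*, the bifunctional enzyme, rose from 2.11 ± 0.191 to 4.01 ± 0.48 CPM (0.92, adjusted *P* = 1.9e-05). In JVM2, 1 of 10 rose, the racemase *AMACR* (0.5, adjusted *P* = 0.022), and 0 fell, where 14.1% and 15.3% of all genes did. *AMACR* did not pass without JVM2-2B17 replicate 3 (adjusted *P* = 0.057) or JVM2-CTRL replicate 2 (0.1).

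Among 9 tested genes of PPARs, their partners and coactivators, which act on many fatty acid oxidation genes, 2 rose and 2 fell in MEC1, and 1 rose and 2 fell in JVM2. These shares, 44.4% and 33.3%, were near the 41.7% and 29.3% of all genes. *PPARA* rose in MEC1 by 0.2 (adjusted *P* = 0.0019). *RXRA*, the partner receptor, fell there from 85.2 ± 2.72 to 50.3 ± 3.59 CPM (-0.76, adjusted *P* = 2.5e-10), and the corepressor *NCOR1* fell by 0.17 (adjusted *P* = 0.00038). *PPRC1*, a coactivator related to PGC-1, rose in MEC1 (0.25, adjusted *P* = 0.00029) and fell in JVM2 from 64.5 ± 1.98 to 46.8 ± 12 CPM (-0.46, adjusted *P* = 0.025), with an interaction of 0.71 (SE 0.14, adjusted *P* = 0.00061). In JVM2, *PPARGC1B* fell by 0.38 (adjusted *P* = 0.022, but 0.12 without JVM2-CTRL replicate 3) and *RXRB* rose by 0.27 (adjusted *P* = 0.025). The JVM2-2B17 libraries of *PPRC1* held 50.9, 33.3 and 56.2 CPM, and without replicate 2, which stood apart, its log2 fold change was -0.27 (adjusted *P* = 0.0013) in place of -0.46. *PPRC1* in JVM2 did not pass without JVM2-CTRL replicate 1 (0.085), 2 (0.065) or 3 (0.074), and *RXRB* did not pass with DESeq2 (0.054) or in 5 of the 6 fits without 1 library (0.061 to 0.11), all but that without JVM2-2B17 replicate 2.

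Of 8 further carnitine transporters and CPT1 isoforms, 4 were tested in each line. The share that passed was 50% in MEC1 and 25% in JVM2, against 41.7% and 29.3% of all genes. *SLC16A9*, a carnitine efflux transporter, rose in MEC1 from 15.4 ± 0.696 to 19.4 ± 1.74 CPM (0.33, adjusted *P* = 0.00064), and the mitochondrial carrier *SLC25A29* fell by 0.17 (adjusted *P* = 0.042), a call lost with DESeq2 (0.11) and no filter on low counts (0.051), and without MEC1-CTRL replicate 2 (0.23) or MEC1-2B17 replicate 1 (0.14) or 3 (0.13). In JVM2, *SLC6A14*, an amino acid transporter that also accepts carnitine, had 0, 1 and 0 counts in CTRL and 82, 74 and 60 in 2B17. This is at least 25.1-fold higher against the floor of 3 counts per library. *SLC6A14* met the count filter only through JVM2-2B17, so it could be counted only as a rise, and no *P*-value is given for it. The 25% in JVM2 rests on this gene alone. The other 3 did not pass in JVM2.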

How the data were processed

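Paired-end reads came from ribosomal RNA-depleted libraries. The authors trimmed reads, aligned them to hg38 and deposited, for each line, raw read counts per Ensembl gene without normalization; the submitters' processing notes name Trimmomatic, TopHat2 2.0.14, HTSeq, DESeq2 and edgeR. The same tables hold the authors' fold changes and *P*-values and 12 columns of rounded normalized values, none of which were used. Whether counting used strand is not given in the sources used here. Counts were grouped by the labels and tested with edgeR 4.0.16 in R 4.3.3: TMM scaling, filterByExpr (minimum count 10, minimum total 15), quasi-likelihood F-test and Benjamini-Hochberg adjustment over all genes tested, at 0.05. Each line was fitted alone, 3 libraries against 3. The interaction of line and arm and the comparison of control groups came from a joint fit of 12 libraries over genes in both tables. Intervals are 95% intervals of the quasi-likelihood fit. A group with at most 3 counts per library was set at that floor, which covers counting error only. Positions and exon lengths are from GENCODE v44. The code was tested on simulated data. Total counts were 31762649 to 37744991 in MEC1 and 8809179 to 11231330 in JVM2. The members and lists were chosen with earlier results of these data known. Named genes were the 9 members, *UGT2B17*, overlapping genes, neighbours of *BBOX1*, in each other list and line up to 2 largest rises and 2 largest falls past the threshold, and the 5 genes most correlated with *BBOX1*. Alternatives were DESeq2 1.42.0, edgeR's exact test, both tools together, RLE scaling, library size only, no filter, a minimum of 10 counts per gene in every library, replicate number as a block, and each library left out in turn.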

Additional observations from a re-analysis of the deposited data

Results flagged for a closer look

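The following differences of 2B17 from CTRL were unlike in the 2 lines by the interaction test (log2 fold change in MEC1 minus that in JVM2, edgeR quasi-likelihood test on the joint fit). The MEC1 arms differed in construct and antibiotic, whereas the JVM2 arms shared vector and antibiotic. The part of *UGT2B17* in these values therefore cannot be told apart. Among the carnitine genes the difference was -0.57 for *TMLHE* (adjusted *P* = 0.0018), -0.65 for *SLC22A5* (0.049), 0.73 for *CPT1A* (1e-04), -0.22 for *CPT2* (0.038) and -0.75 for *CRAT* (0.00016). The calls of *SLC22A5* and *CPT2* were lost in 9 and 8 of 12 fits that left out a library and with the replicate number as a block (adjusted *P* = 0.054 and 0.053), which leaves 3 of the 5. All 8 jointly tested carnitine genes were examined and *P*-values were adjusted over all genes. *CRAT* lies in the region of chromosome 9 where 60 of 84 neighbours were lower in MEC1-2B17, and the part of that in its value was not tested.

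Among related genes, *HADH* differed by -0.64 (adjusted *P* = 6.1e-07), with a fall in each MEC1-2B17 library and a rise in each JVM2-2B17 library against the controls of its line. *PPRC1* differed by 0.71 (adjusted *P* = 0.00061); its JVM2 value was -0.27 without JVM2-2B17 replicate 2, against -0.46 with it.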

How the results depend on the processing

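No result changed direction past the threshold under any alternative. With other tools, scalings or filters the number of carnitine genes called was 6 to 7 in MEC1, 0 to 1 in JVM2 (1 with the exact test and 1 with RLE scaling, *TMLHE* in both), 3 to 5 for the interaction and 5 to 7 between controls (5 with library size only). Leaving out each library gave 5 to 7, 0 to 1, 3 to 4 and 7 to 7. For the interaction, 3 remained without JVM2-2B17 replicate 1, JVM2-CTRL replicate 1 or 3, MEC1-2B17 replicate 1 or MEC1-CTRL replicate 2; in JVM2, 1 passed without JVM2-2B17 replicate 2 or 3. Over all genes, 6909 passed in MEC1 (5681 to 6986 under other settings, 5936 to 6606 with a library left out) and 3821 in JVM2 (2959 to 4236, and 2687 to 4541). *PPRC1* in JVM2 did not pass when any JVM2-CTRL library was left out (adjusted *P* of 0.065 to 0.085 in edgeR).

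With the replicate number as a block, 6897 genes passed in MEC1, 4236 in JVM2, 5083 in the interaction and 11852 between controls, and 7, 0, 3 and 7 carnitine genes. *SLC22A5* (adjusted *P* = 0.054) and *CPT2* (0.053) lost the interaction call. In MEC1, deviations of same-numbered libraries correlated by -0.139 to 0.102 and those of other pairs by -0.112 to 0.206. In JVM2 these ranges were -0.02 to 0.147 and -0.158 to 0.092. Of 6 libraries, 2 in MEC1 and 4 in JVM2 correlated best with their own number. These values do not settle whether the JVM2 numbers mark pairs. The main fits left the number out, and the counts above are those with it. The depth of JVM2 and the larger variation between its replicates limit what its smaller changes can show, above all for *SLC22A5*.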

Other observations

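The CPT1 family has 3 genes, *CPT1A*, *CPT1B* and *CPT1C*, of which *CPT1B* is the muscle form. Per kilobase of exon, *CPT1A* made up 86.3% of the summed CPT1 level in MEC1-CTRL (84.7 to 87.6% over the libraries) and 90.8% in MEC1-2B17 (89.9 to 92.4%). *CPT1C* has no row in JVM2, so the sum there held *CPT1A* and *CPT1B* only. Of that sum, *CPT1A* made up 87.7% in CTRL (86.4 to 88.6%) and 82.2% in 2B17 (80.4 to 84.5%). The shares of the arms did not overlap in either line. For the CPM of single genes, which is another measure, arms did not overlap for 50.1% of tested genes in MEC1 and 45.2% in JVM2. In JVM2 the CPM arms of *CPT1A* and of *CPT1B* each overlapped. The JVM2 shares rest on few *CPT1B* counts, 12, 10 and 11 in CTRL and 21, 10 and 14 in 2B17, and *CPT1A* did not pass there (edgeR adjusted *P* = 0.41). *CPT1B* itself passed the test in neither line, with a log2 fold change of -0.04 in MEC1 (edgeR adjusted *P* = 0.84), and JVM2 gave 0.51 (adjusted *P* = 0.24). *CPT1B* overlaps a readthrough transcript with *CHKB*, so its counts are uncertain.

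The genes whose level followed *BBOX1* most closely over the 6 JVM2 libraries were *SULF1*, *ADM*, *RRAGD*, *IFIT3* and *LINC01239*, with Pearson's r of log2(CPM + 0.5) of 0.9998, 0.9997, 0.9995, 0.9995 and 0.9995. The 6 libraries form 2 arms, so any gene with a large difference between the arms and little spread scores high: 168 of 13020 genes reached 0.99. *ADM*, the adrenomedullin gene, fell from 54.7 ± 2.89 to 6.55 ± 1.06 CPM. *RRAGD*, a Rag GTPase of amino acid sensing, fell from 98.3 ± 1.34 to 14.7 ± 1.67 CPM. *IFIT3*, an interferon-induced gene, fell from 152 ± 2.74 to 37 ± 2.9 CPM. *SULF1*, a heparan sulfate sulfatase, was at least 20.5-fold lower against the floor of 3 counts per library. *BBOX1*, *SULF1* and *LINC01239* have no row in the MEC1 table.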
